A study of Mus musculus with 14 samples.

Results

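The *Tfap2* family (*Tfap2a*, *Tfap2b*, *Tfap2c*, *Tfap2d* and *Tfap2e*) encodes the AP-2 transcription factors. Its contacts were followed in promoter capture Hi-C (PCHi-C) of mouse cranial neural crest cells (CNCCs). In PCHi-C, DNA cut with HindIII is ligated in fixed nuclei, so that neighbours in space become joined, and the products with a promoter fragment (the bait) are captured and sequenced. The members were the bait fragments that hold an annotated transcription start site (TSS) of a family gene, and 5 of the 22171 baits qualified, 1 for each gene. The measure was the CHiCAGO score of a bait with another fragment, which is the weighted −ln of a p-value and grows as a contact exceeds the background that CHiCAGO estimates for that library.

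Each of 7 conditions had 2 libraries. The *Hox*-negative libraries were CNCCs of the frontonasal process (FNP) and of the maxillary (Mx) and mandibular (Md) parts of the first pharyngeal arch on embryonic day E10.5. The *Hoxa2*-expressing libraries were CNCCs of PA2, the arch behind it, at E10.5 and of the pinna, the external ear that arises from PA2, at E12.5 and E14.5. In these 6 conditions the embryos were wild type for *Hoxa2* and carried Wnt1::Cre and a ROSA-RFP reporter, so the sorted cells were those in which the *Wnt1* promoter had driven Cre, with their descendants. The remaining condition was PA2 at E10.5 of *Hoxa2* knockout embryos, whose *Hoxa2* EGFP allele has EGFP in place of *Hoxa2* and whose GFP-positive cells were sorted, so its sort differed from that of its control. The pinna at E14.5 was dissociated with papain and the earlier tissues with trypsin. The lists hold no expression values, so the labelled cell type was not checked against its markers, and the *Hoxa2* bait had 39 and 38 contacts in the knockout and 42 and 50 in wild-type PA2, which does not test the deletion. The study's methods describe the replicates as biologically independent, and the labels do not say which embryos each came from.

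AP-2 proteins bind DNA as dimers at GC-rich palindromes. *Tfap2a* and *Tfap2b* act in neural crest and in the growth of the face, *Tfap2c* is best known from trophoblast, early ectoderm and germ cells, *Tfap2d* from the midbrain and retina, and *Tfap2e* from the olfactory system. *Tfap2b* and *Tfap2d* are neighbours on chromosome 1, and developmental genes of this kind often touch distant elements that lie in gene deserts or inside the introns of unrelated genes.

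A score of 5 was the lowest in every list, and a pair that a library did not list was given 0, which stands for any score below 5 and not for the absence of contact. Read counts were not part of the lists, and the depth of each library is therefore unknown. The number of listed pairs ran from 119370 in knockout PA2 replicate 1 to 499756 in E12.5 pinna replicate 2, and the number within a chromosome from 113670 to 186248. Md replicate 1 and E12.5 pinna replicate 2 stood apart, with 46.53% and 62.73% of their pairs between chromosomes, against 2.636% to 5.614% in the other 12 libraries. Of the 118 family contacts with another chromosome, 108 came from these 2 libraries, and none of the 118 was listed in more than 1 library. In bulk libraries, a contact made in fewer cells and a contact made less often in each cell cannot be told apart.

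All family fragments on the 4 chromosomes concerned, 411 in number, matched the HindIII digest of the reference genome. The *Tfap2a* bait was chr13:40728278-40737073 (GRCm38/mm10, 8796 bp, gene on the minus strand) and held 8 of the 9 annotated TSSs of the gene. The *Tfap2b* bait was chr1:19208109-19212989 (4881 bp, plus strand, 4 of 5 TSSs), and the *Tfap2d* bait was chr1:19101052-19103235 (2184 bp, plus strand, 1 of 2 TSSs). The *Tfap2c* bait was chr2:172548663-172550204 (1542 bp, plus strand) and held 1 of 6 TSSs, so most starts of *Tfap2c* were not covered by it. The *Tfap2e* bait was chr4:126733620-126736443 (2824 bp, minus strand) and held the only annotated TSS.

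The ends of the neighbouring *Tfap2b* and *Tfap2d* baits, and of a fragment in an intron of *Pkhd1* that both contacted, are shown because the assay reads a contact as a ligation between such ends. The sequences are from the plus strand of GRCm38, with the HindIII site in capitals.
Tfap2b bait, chr1:19208108-19208137: AAGCTTaaaccttctcaaagatttgggtgt
Tfap2b bait, chr1:19212965-19212994: agaatagcatgagagatggaaagcAAGCTT
Tfap2d bait, chr1:19101051-19101080: AAGCTTtctcagggacaagcattctgagag
Tfap2d bait, chr1:19103211-19103240: ttttggagggggaaattgcatcgtAAGCTT
Pkhd1 intron fragment, chr1:20455422-20455451: AAGCTTaaattatatctagggtttctttac
Pkhd1 intron fragment, chr1:20465153-20465182: gcaggagtatctcagtgacatataAAGCTT

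The AP-2 consensus GCCNNNGGC, which reads the same on both strands, was searched for in the contacted regions, since these proteins can bind regulatory DNA of their own family. The matches in the 3 *Tfap2c* contacts of highest mean score, and in the *Tfap2b* contacts ranked 4 and 5, are given with 10 bases on either side, plus strand, with the match in capitals. The 3 *Tfap2b* contacts above those held 0 matches.
Tfap2c contact, chr2:172756743-172756771: ctttgagcgtGCCAAGGGCtctgtgcctg
Tfap2c contact, chr2:172757442-172757470: ctcctcccccGCCTGGGGCgggaactcag
Tfap2c contact, chr2:172767538-172767566: ctctcacactGCCACGGGCttggagacct
Tfap2c contact, chr2:172769684-172769712: tcacttctctGCCCTGGGCgccctgtctc
Tfap2b contact, chr1:20303221-20303249: ctagatggcgGCCTCAGGCctgggcctga
Tfap2b contact, chr1:20513379-20513407: tgcagaagtaGCCCGGGGCacaggcacag
Tfap2b contact, chr1:20513439-20513467: ctttccaaagGCCACTGGCtgattaacgc

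Contact numbers, the fragments of its own chromosome listed with a bait, placed *Tfap2b* and *Tfap2c* at the top of the family and *Tfap2d* at the bottom. *Tfap2c* had 34.2 ± 7.73 contacts (SD, n = 14 libraries) and *Tfap2b* 34.1 ± 9.02, more than 97.3% and 97.2% of all baits. *Tfap2a* had 28.6 ± 12.4, more than 95.6% of baits, and *Tfap2e* 12.1 ± 2.84, more than 81.1%. *Tfap2d* had 4.43 ± 3.48, close to the median of all baits (4.43). The neighbours in this order above *Tfap2e* did not differ beyond their spread, whereas every library had more *Tfap2b* and *Tfap2c* contacts than *Tfap2e* contacts.

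Nearly all recurrent contacts lay downstream, the direction in which the gene is read. Of the fragments listed in at least 4 libraries, *Tfap2a* had 34 downstream and 0 upstream, *Tfap2c* 40 and 0, *Tfap2e* 14 and 0, *Tfap2b* 41 and 1, and *Tfap2d* 3 and 1. Distance separated *Tfap2a* and *Tfap2b* from *Tfap2c* and *Tfap2e*. The median distance was 1296 kb for *Tfap2a* (741 to 3999 kb) and 1241 kb for *Tfap2b* (712 to 14714 kb), against 244 kb for *Tfap2c* (110 to 468 kb) and 140 kb for *Tfap2e* (103 to 200 kb).

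**Figure D1:**
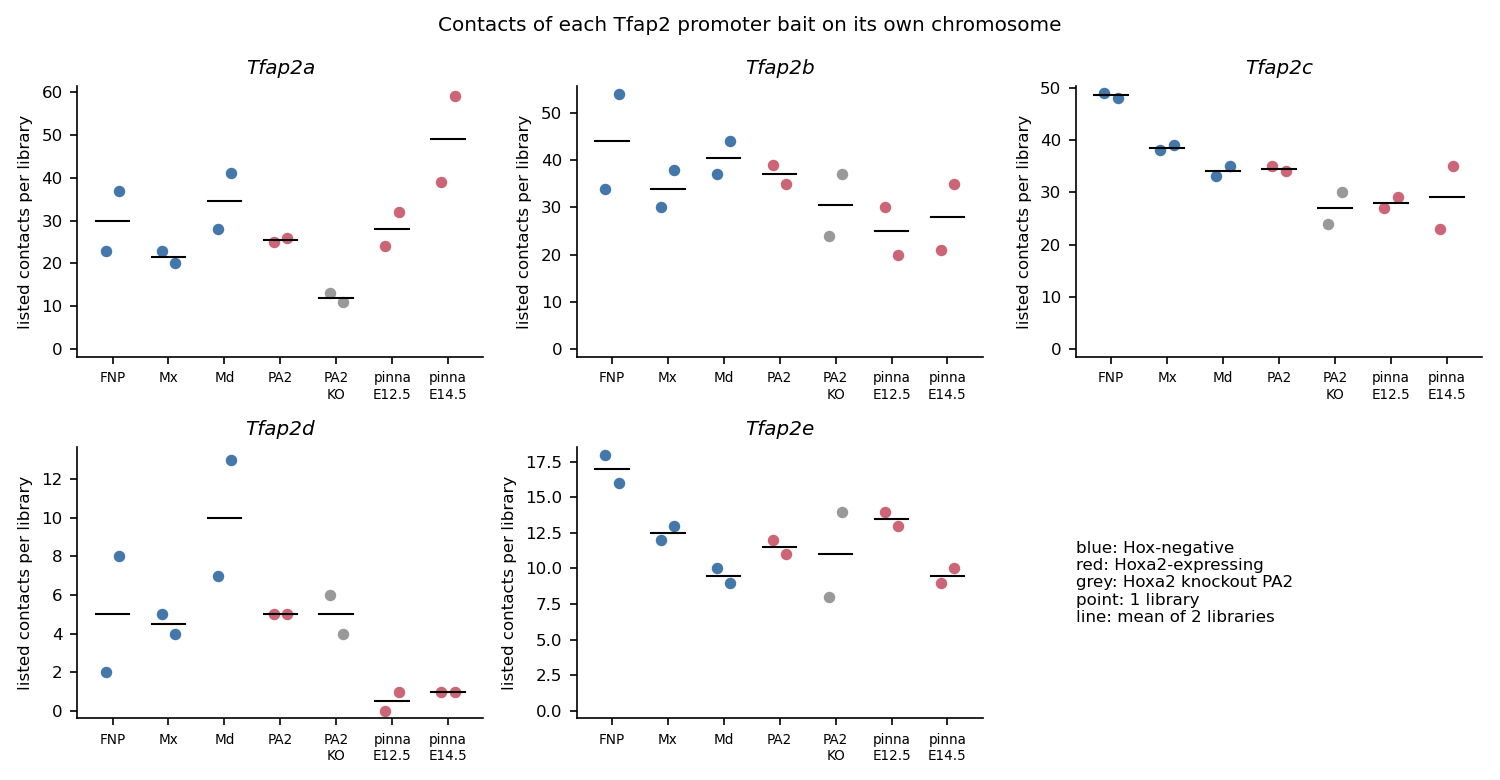
Number of contacts on its own chromosome for each *Tfap2* bait (y axis) in each library, by condition (x axis). Points are libraries and lines are means of 2. *Tfap2a* is lowest in the knockout (13 and 11) and highest in the E14.5 pinna (39 and 59), and *Tfap2d* is at 0 or 1 in all 4 pinna libraries.

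*Tfap2a* is the AP-2 gene whose loss disrupts closure of the neural tube and growth of the face. Of its 34 recurrent contacts, 4 patches between 0.74 and 1.56 Mb downstream held 6, 3, 12 and 4 in order of distance, and the rest lay outside them. A patch was at least 3 fragments listed in at least 4 libraries with gaps of at most 20 kb. The patches were drawn from these scores and so carry no test. The contact with the highest mean score was chr13:39437374-39439494, 1294 kb downstream. It scored 7.76 and 9.39 in FNP, 8.72 and 13.01 in Mx, 12.62 and 10.9 in Md, 6.03 and 5.78 in PA2, 11.55 and 6.38 in the knockout, 0 and 14.82 in the E12.5 pinna, and 11.64 and 13.09 in the E14.5 pinna. It was thus listed in 13 of 14 libraries and was lowest in PA2 apart from the pinna library that did not list it. The next strongest were chr13:39641860-39647518 (mean 8.80, 12 libraries) and chr13:39647519-39666217 (7.08, 11 libraries), side by side near 1.1 Mb, and chr13:39968998-39974110 (6.13, 11 libraries), which was unlisted in both FNP libraries. *Tfap2a* also contacted baits of other genes, among them *Nrn1*, a neurite growth factor, at 3999 kb in 8 libraries, *Dsp*, which encodes the desmosomal protein desmoplakin, at 2581 kb in 5, *Slc35b3*, a sulfate donor transporter, at 1769 kb in 5, and *Eef1e1*, a cofactor of the tRNA synthetase complex, at 2073 kb in 3.

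*Tfap2b* is the gene mutated in Char syndrome, in which the face, the ductus arteriosus and the digits are affected. Its main patch, chr1:20441309-20552106, spanned 110.8 kb and began 1.23 Mb downstream, inside *Pkhd1*, the polycystic kidney disease gene that encodes fibrocystin (chr1:20057779-20618064, minus strand). Of its 36 HindIII fragments, 25 were listed in at least 4 libraries. The mean score over its fragments was 3.40 and 5.44 in FNP, 4.81 and 6.07 in Mx, 8.17 and 10.56 in Md, 6.16 and 5.32 in PA2, 3.93 and 5.21 in the knockout, 4.51 and 2.82 in the E12.5 pinna, and 2.83 and 4.04 in the E14.5 pinna. Both Md libraries were above all others, and both E14.5 libraries were below every Mx, Md and PA2 library.

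Within that patch, neighbouring fragments had different profiles over the conditions. The fragment with the highest mean score, chr1:20455423-20465177 (1250 kb, *Pkhd1* intron), was listed in 13 libraries and reached 30.17 in Md replicate 2. The fragment chr1:20465178-20466591 (1255 kb) scored 24.29 and 32.63 in Md and 21.43 and 19.44 in PA2, but 0 and 6.14 in FNP. Near the start of the patch lay chr1:20442132-20445238 (1233 kb), a bait that holds the starts of the non-coding genes *Gm15795* and *Gm24162*. It scored 19.2 ± 3.23 over the 6 *Hox*-negative libraries and 6.65 ± 3.66 over the 6 *Hoxa2*-expressing libraries. In contrast, chr1:20505620-20516395 (1300 kb), which holds an exon of *Pkhd1*, scored 19.96 and 17.41 in the E12.5 pinna and 19.19 and 20.88 in the E14.5 pinna, above every E10.5 library (0 to 15.99). The only *Tfap2b* fragment listed in all 14 libraries was chr1:20454455-20455422 (1244 kb), with scores of 6.01 to 23.09.

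**Figure D2:**
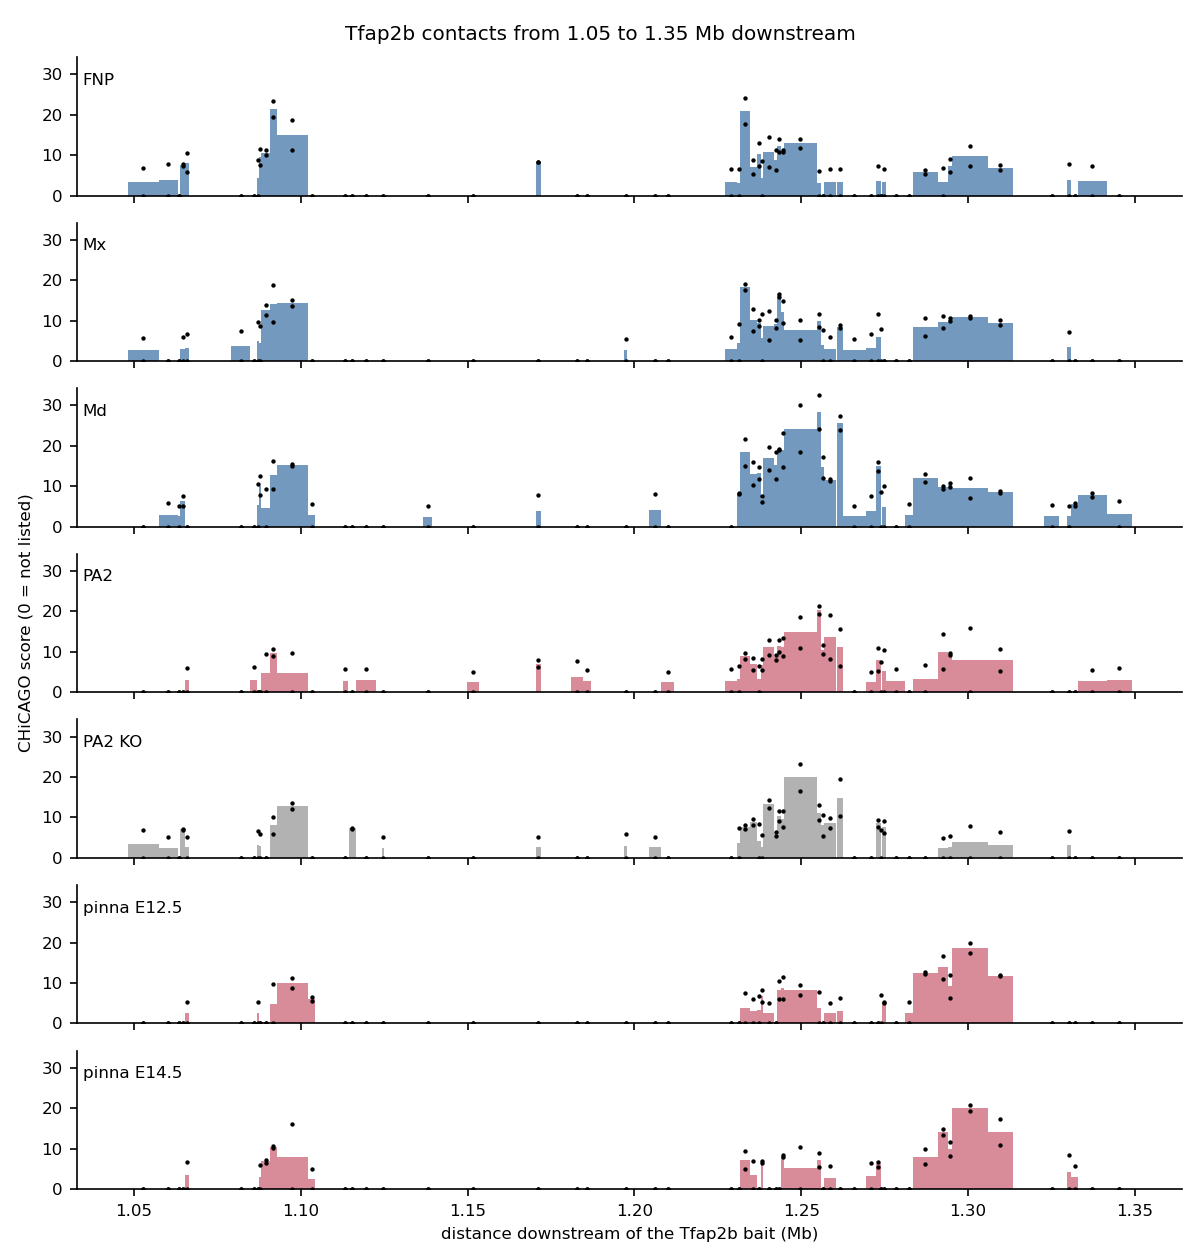
CHiCAGO score of the *Tfap2b* bait (y axis) against distance downstream of its start in Mb (x axis), 1 panel per condition. Bars are means of 2 libraries per HindIII fragment and black points are libraries. The highest scores near 1.25 Mb are those of Md, while the fragment at 1.30 Mb is highest in the pinna.

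*Tfap2b* also contacted *Sox17*, a transcription factor of endoderm and arteries, over 14714 kb upstream. This pair scored 18.78 and 15.38 in PA2, 9.8 and 6.18 in Mx, and 0 and 5.28 in Md, and was unlisted in FNP, in the knockout and in all pinna libraries. The fit gave adjusted p = 0.0611 for knockout against wild-type PA2 and 0.0835 for the stage comparison, so neither passed as reported. It passed under 6 of the other settings for the knockout (adjusted p = 0.00472 to 0.0440), 5 for stage (0.0144 to 0.0409) and 2 for position (0.0333 and 0.0404). Other *Tfap2b* contacts with baits were *Mcm3*, a subunit of the replicative helicase, at 1611 kb in 4 libraries and *4930486I03Rik* at 1171 kb in 6.

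*Tfap2c* had the highest scores of the family. Its main patch, chr2:172718160-172836715, was intergenic, spanned 118.6 kb and began 169 kb downstream, and 26 of its 29 HindIII fragments were listed in at least 4 libraries, 12 of them in all 14. The strongest contact of the family was in it, chr2:172755698-172760010, 208.4 kb downstream. It scored 30.5 and 35.56 in FNP, 35.27 and 42.12 in Mx, 23.75 and 29.72 in Md, 29.95 and 30.55 in PA2, 21.93 and 21.94 in the knockout, 19.99 and 24.97 in the E12.5 pinna, and 16.62 and 24.39 in the E14.5 pinna. FNP and Mx were the highest conditions, and the knockout and pinna libraries lay between 16.62 and 24.97, below every wild-type E10.5 library except Md replicate 1. The mean score over the whole patch ran from 12.82 to 15.99 in FNP and Mx, from 8.34 to 9.99 in Md and PA2, and from 5.29 to 8.53 in the knockout and pinna libraries. The FNP and Mx range lay apart from the rest, and the other ranges overlapped only at Md replicate 1.

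A further *Tfap2c* patch, chr2:172927877-173019753, held the baits of *Bmp7*, a bone morphogenetic protein ligand, *Spo11*, which makes the DNA breaks of meiosis, and *Rae1*, an mRNA export factor. *Tfap2c* contacted *Rae1* (454 kb) in 13 libraries with scores of 5.41 to 17.08 and *Bmp7* (391 kb) in 12 with 5.37 to 12.54. Both pairs were highest at E10.5, *Rae1* in Md replicate 1 and *Bmp7* in PA2 replicate 1, and neither passed with all libraries. The *Rae1* pair passed with stage without E12.5 pinna replicate 2 (adjusted p = 0.00472). *Spo11* (428 kb) was contacted in 5 libraries. The only upstream bait contact was with *Cyp24a1* and *Pfdn4*, a vitamin D hydroxylase and a chaperone subunit gene that share a bait, in 3 libraries.

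**Figure D3:**
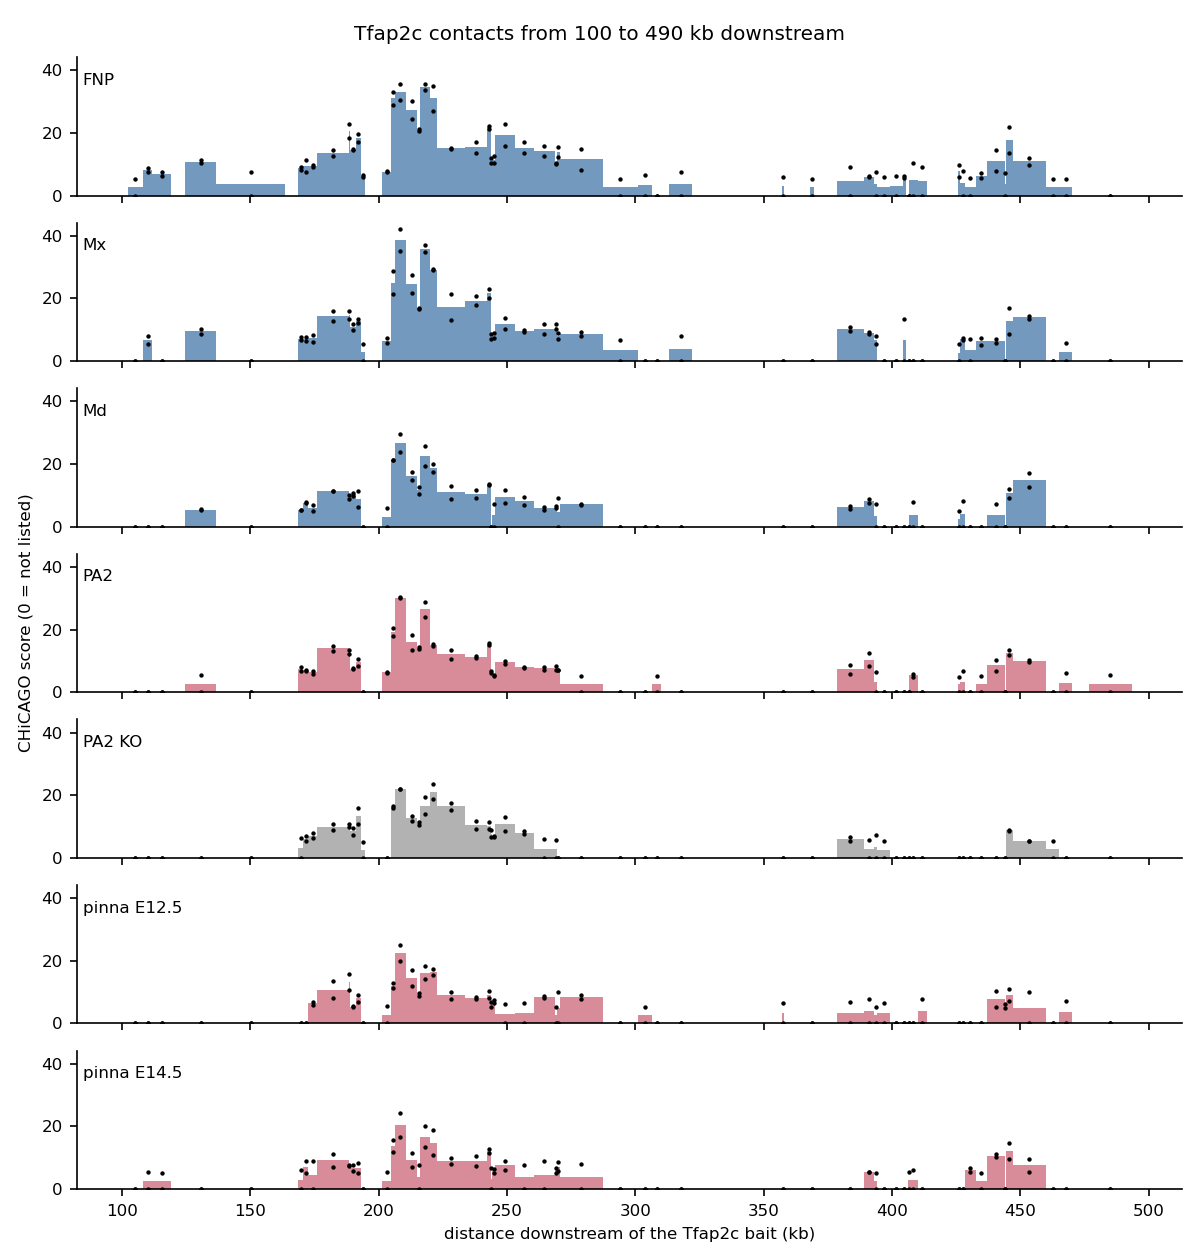
CHiCAGO score of the *Tfap2c* bait (y axis) against distance downstream of its start in kb (x axis), 1 panel per condition. Bars are means of 2 libraries per HindIII fragment and black points are libraries. The block of contacts from 169 to 287 kb is present in all conditions, and its highest fragment scores 42.12 in Mx replicate 2 and 16.62 in E14.5 pinna replicate 1.

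*Tfap2d* was the sparsest member. It had 2 and 8 contacts in FNP, 5 and 4 in Mx, 7 and 13 in Md, 5 and 5 in PA2, 6 and 4 in the knockout, 0 and 1 in the E12.5 pinna, and 1 and 1 in the E14.5 pinna. All 4 pinna libraries thus had fewer contacts than any E10.5 library. Its mean was below the 5 contacts required for the reported test. With no such filter the stage comparison gave a range of condition means of 2.23 on the log2 scale (adjusted p = 0.0958), and *Hoxa2*-expressing against *Hox*-negative libraries a difference of -1.33 ± 0.444 (0.150), so neither passed. Its contact with the highest mean was chr1:18359529-18360212, 742 kb upstream, which was listed in 7 libraries with scores of 5.26 to 13.96.

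*Tfap2d* and *Tfap2b* start 105.892 kb apart and shared their distant contacts. The direct pair of the 2 baits was listed in 0 libraries. Of the 34 same-chromosome fragments of *Tfap2d*, 28 were also listed for *Tfap2b*, which is 82.4% of the *Tfap2d* fragments and 25.2% of the 111 *Tfap2b* fragments. Of 62 listings of a *Tfap2d* fragment in a library, 45 had *Tfap2b* listed with that fragment in the same library, and all 15 *Tfap2d* fragments found in at least 2 libraries were shared. The score was higher for *Tfap2b* at 25 of the 28. At the *Pkhd1* intron fragment whose ends are shown above, *Tfap2d* scored 9.71 in FNP replicate 2, 6.33 in Mx replicate 2, 8.82 in Md replicate 2 and 7.21 in PA2 replicate 1, where *Tfap2b* scored 11.87, 10.17, 30.17 and 11.05. Both baits are near each other on the chromosome and were read in the same libraries, and the part of that nearness in the sharing was not tested.

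*Tfap2e* had short-range contacts. Its patch, chr4:126532457-126605204, lay 129.8 to 203 kb downstream and overlapped *Ago4*, an Argonaute gene, and *Clspn*, which encodes the replication checkpoint protein claspin. Its strongest contact, chr4:126600323-126600870, was listed in all 14 libraries with scores between 7.63 (E14.5 pinna replicate 1) and 17.23 (E12.5 pinna replicate 2). Its neighbours chr4:126599620-126600322 and chr4:126600871-126605204 followed with means of 10.3 and 8.59. The *Clspn* bait was contacted in 7 libraries and that of *5730409E04Rik* in 3. The condition means of its contact number ran from 9.5 ± 0.707 (SD, n = 2) in Md and in the E14.5 pinna to 17 ± 1.41 in FNP.

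The *Tfap2c* patch was rich in AP-2 motifs. It held 49 matches of GCCNNNGGC, against a median of 15 in 1495 windows of that length on chromosome 2, of which 95.9% had fewer and 99.9% had at least 1. Its GC content was 50.3% against a median of 41.4%, and the part of base composition in this count was not tested. The long *Tfap2b* patch held 15 matches against a median of 12 (59.5% of windows had fewer) at a GC content of 40.4%, and the *Tfap2e* patch 16 against 9 (74.1% had fewer). The further *Tfap2c* patch held 22 against 12 and the short *Tfap2b* patches 2 against 1 and 2 against 2. The 4 *Tfap2a* patches held 2, 6, 0 and 3 against medians of 3, 6, 3 and 3, and the *Tfap2d* patch 1 against 2. The 250 bases before the most upstream TSS in each bait held a match for 0 of the 5 genes, and 13.7% of 32817 RefSeq promoter windows held one, a share at which 0 of 5 is no contrast. A match is a description of these letters and not a binding site.

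Setting *Hoxa2*-expressing against *Hox*-negative libraries asked whether AP-2 genes contact other DNA in CNCCs that use *Hoxa2*. All *Hox*-negative libraries were from E10.5 and 4 of the 6 *Hoxa2*-expressing libraries from later stages, so *Hoxa2* expression and stage cannot be fully told apart. The fits of this comparison took all 6 libraries of a group as independent, with no term for condition. Their p-values may therefore be too small where the 2 libraries of a condition are alike. Contact numbers were 39.5 ± 8.48 in *Hox*-negative and 30 ± 7.90 in *Hoxa2*-expressing libraries for *Tfap2b*, 40.3 ± 6.68 and 30.5 ± 4.97 for *Tfap2c*, 28.7 ± 8.50 and 34.2 ± 13.4 for *Tfap2a*, and 13 ± 3.46 and 11.5 ± 1.87 for *Tfap2e* (SD, n = 6 each). After scaling to the total of each library, the log2 differences were -0.35 ± 0.211 (SE) for *Tfap2b*, -0.34 ± 0.182 for *Tfap2c*, 0.27 ± 0.201 for *Tfap2a* and -0.09 ± 0.236 for *Tfap2e*. None of the 4 baits tested passed (limma, adjusted p = 0.378, 0.318, 0.501 and 0.874), where 1.83% of all baits did. The *Tfap2b* difference was -0.20 without E12.5 pinna replicate 2, that of *Tfap2a* was 0.15 without E14.5 pinna replicate 2, and with only scores of 10 or more those of *Tfap2b* and *Tfap2c* were -0.77 and -0.73, none of them past the threshold. For single contacts, 0 of 222 family pairs passed, where 0.0234% of all pairs did. At an unadjusted p under 0.05 there were 26 family pairs (11.7%, against 6.49% of all pairs), and all 26 were lower in the *Hoxa2*-expressing libraries, 15 of *Tfap2c*, 10 of *Tfap2b* and 1 of *Tfap2a*. The direction of all pairs at that level was not counted, and of the 67 pairs past the adjusted threshold 49 were lower. Fragments of 1 bait share libraries and often lie side by side, so the 26 are not independent.

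Summing scores over 100 kb of distance, a setting added after the data were seen, gave 2 of 34 family bins past the threshold, both lower in *Hoxa2*-expressing libraries, where 0.631% of all bins were called and 0.369% were called lower. *Tfap2b* fell at 1000 to 1100 kb downstream. Its summed score there was 95.84 and 132.64 in FNP, 51.63 and 94.02 in Mx, and 50.54 and 75.42 in Md, against 30.08 and 34.29 in PA2, 29.09 and 11.26 in the E12.5 pinna, and 24.09 and 44.43 in the E14.5 pinna. The groups did not overlap in this bin, which is named because it passed on these same values. How many other bins separate in this way was not counted. PA2 at E10.5 also lay below the *Hox*-negative libraries, and the parts of stage and *Hoxa2* expression were not tested. The difference was -1.08 ± 0.227 on the asinh scale, which is close to a difference of natural logarithms here (limma, adjusted p = 0.0157), and it was lost without FNP replicate 2 (adjusted p = 0.0689). The knockout libraries, at 30.91 and 54.66, straddled the range of both groups, and their difference from wild-type PA2 did not pass (adjusted p = 0.797).

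*Tfap2c* fell at 200 to 300 kb, the centre of its main patch. The summed score was 333.87 and 361.07 in FNP, 297.79 and 330.18 in Mx, 185.66 and 215.45 in Md, 218.36 and 224.18 in PA2, 149.66 and 177.93 in the E12.5 pinna, and 113.45 and 194.59 in the E14.5 pinna. Both Md libraries lay below both PA2 libraries, so the groups overlapped. FNP and Mx had the highest means (347.5 and 314.0), and the Md mean of 200.6 was also above the *Hoxa2*-expressing mean of 179.7. The difference was -0.47 ± 0.105 (adjusted p = 0.0261). It passed in 5 of the 12 fits that left out a library and was lost without FNP replicate 1 (adjusted p = 0.0750), FNP replicate 2 (0.0854), Mx replicate 1 (0.0566), Mx replicate 2 (0.0765), E12.5 pinna replicate 1 (0.0742), E12.5 pinna replicate 2 (0.0545) or E14.5 pinna replicate 1 (0.101).

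**Figure D4:**
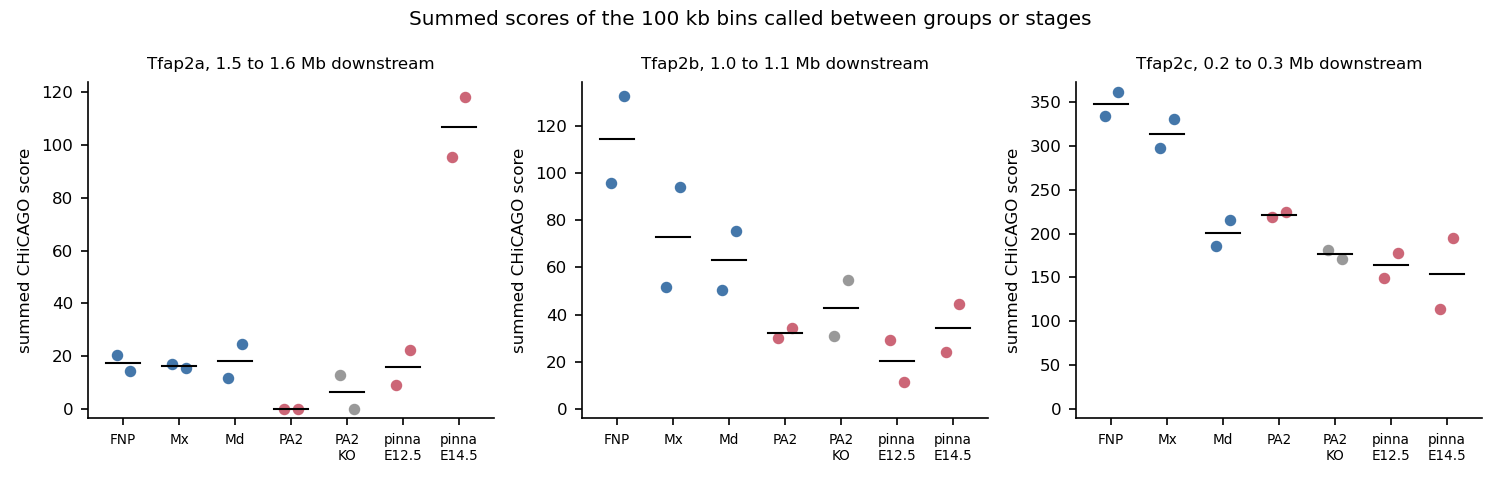
Summed CHiCAGO score (y axis) of 3 bins of 100 kb in each library, by condition (x axis). Points are libraries and lines are means of 2. For *Tfap2b* all *Hox*-negative libraries (at least 50.54) are above all *Hoxa2*-expressing libraries (at most 44.43), for *Tfap2c* Md lies below PA2, and for *Tfap2a* the E14.5 pinna (95.48 and 118.19) stands above all others.

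The comparison of position at E10.5 (FNP, Mx, Md and PA2) asked whether the contacts follow the facial prominence a cell comes from. None of the 4 baits passed, with adjusted p = 0.775 for *Tfap2c*, 0.787 for *Tfap2e*, 0.928 for *Tfap2a* and 0.965 for *Tfap2b*, where 0% of all baits did. Of 134 family pairs, 0 passed, where 0.964% of all pairs did, and 21 (15.7%, against 8.13% of all pairs) had an unadjusted p under 0.05. The pairs nearest to the threshold were those of *Tfap2a* with *Nrn1* (adjusted p = 0.0604) and with chr13:39002283-39004999 (0.0767). The latter, 1729 kb downstream, scored 6.08 and 7.06 in FNP and 5.53 and 6.18 in Md and was unlisted in both libraries of Mx, PA2 and the knockout. The highest scores of several *Tfap2b* fragments in Md, described above, did not reach the threshold in this comparison, and among the 100 kb bins 0 of 28 passed, where 0.0402% of all bins did (10, or 35.7%, had an unadjusted p under 0.05, against 7.36% of all bins).

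The comparison of stage (PA2 at E10.5, pinna at E12.5 and at E14.5) followed the PA2 cells into the ear. For contact numbers, 0 of the 4 baits passed (adjusted p = 0.203 for *Tfap2a*, 0.336 for *Tfap2b*, 0.420 for *Tfap2c* and 0.60 for *Tfap2e*), where 3.27% of all baits did, and *Tfap2a* had the highest mean in the E14.5 pinna, 49 ± 14.1 (SD, n = 2) against 25.5 ± 0.707 in PA2. For single contacts, 4 of 134 family pairs passed, where 1.92% of all pairs did. A pair of adjacent *Tfap2b* fragments in an intron of *Pkhd1* was among them. The fragment chr1:20453254-20454454 (1201 bp, 1243 kb downstream) scored 12.97 and 9.96 in PA2, 10.61 and 6 in the E12.5 pinna, and 0 and 0 in the E14.5 pinna (limma, moderated F test, adjusted p = 0.00126). Its neighbour chr1:20452509-20453253 (745 bp) scored 9.34 and 8.01 in PA2 and was unlisted in all 4 pinna libraries (adjusted p = 0.00766). An unlisted pair may have any score below 5, so the size of these steps is not known. Both pairs were listed in all 8 wild-type E10.5 libraries and in both knockout libraries, and both stayed past the threshold in each of the 6 fits that left out a library (highest adjusted p = 0.00716 and 0.0454). Setting scores under 10 to 0 ended both calls (adjusted p = 0.756 and 1).

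The *Tfap2c* pair that passed, chr2:172720074-172721918 (1845 bp, intergenic, 171.6 kb), scored 6.95 and 7.14 in PA2, 0 and 0 in the E12.5 pinna, and 5.16 and 9.09 in the E14.5 pinna (adjusted p = 0.00546). These scores lie close to the lowest that is listed, so the step to 0 may be small. The *Tfap2a* pair with the fragment that holds the start of *Nrn1*, chr13:36732156-36736097 (3942 bp), scored 6.53 and 10.84 in PA2, 7.1 and 20.76 in the E12.5 pinna, and 0 and 0 in the E14.5 pinna (adjusted p = 0.0227). That call rested on single libraries. It was lost without PA2 replicate 1 (adjusted p = 0.0515), PA2 replicate 2 (0.0709), E12.5 pinna replicate 2 (0.0683), E14.5 pinna replicate 1 (0.116) or E14.5 pinna replicate 2 (0.0870). Without Md replicate 1 and E12.5 pinna replicate 2 together, the 2 libraries that stood apart, 12 family pairs passed in place of 4, among them *Tfap2b* with the *Gm15795* fragment (adjusted p = 0.00919) and *Tfap2c* with *Rae1* (0.00870).

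Among the 100 kb bins, 1 of 28 passed in the stage comparison, where 1.02% of all bins did. *Tfap2a* at 1500 to 1600 kb downstream had a summed score of 0 and 0 in PA2, 9.01 and 22.52 in the E12.5 pinna, and 95.48 and 118.19 in the E14.5 pinna, against 11.67 to 24.7 in the *Hox*-negative libraries (adjusted p = 0.0235). The E14.5 pinna was the only condition above 24.7. The call was lost without PA2 replicate 1 (adjusted p = 0.147), PA2 replicate 2 (0.142), E14.5 pinna replicate 1 (0.0684) or E14.5 pinna replicate 2 (0.0709). The *Tfap2b* bin at 1200 to 1300 kb, which holds the nearer part of its main patch, did not pass (adjusted p = 0.136). It summed to 211.28 and 175.26 in PA2, 130.41 and 72.41 in the E12.5 pinna, and 63.45 and 101.2 in the E14.5 pinna. The bin at 1300 to 1400 kb, which holds the rest of that patch, was higher in the pinna and did not pass (adjusted p = 0.889). Its sums were 22.12 and 21.17 in PA2, 31.97 and 29.04 in the E12.5 pinna, and 38.54 and 44.06 in the E14.5 pinna.

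**Figure D5:**
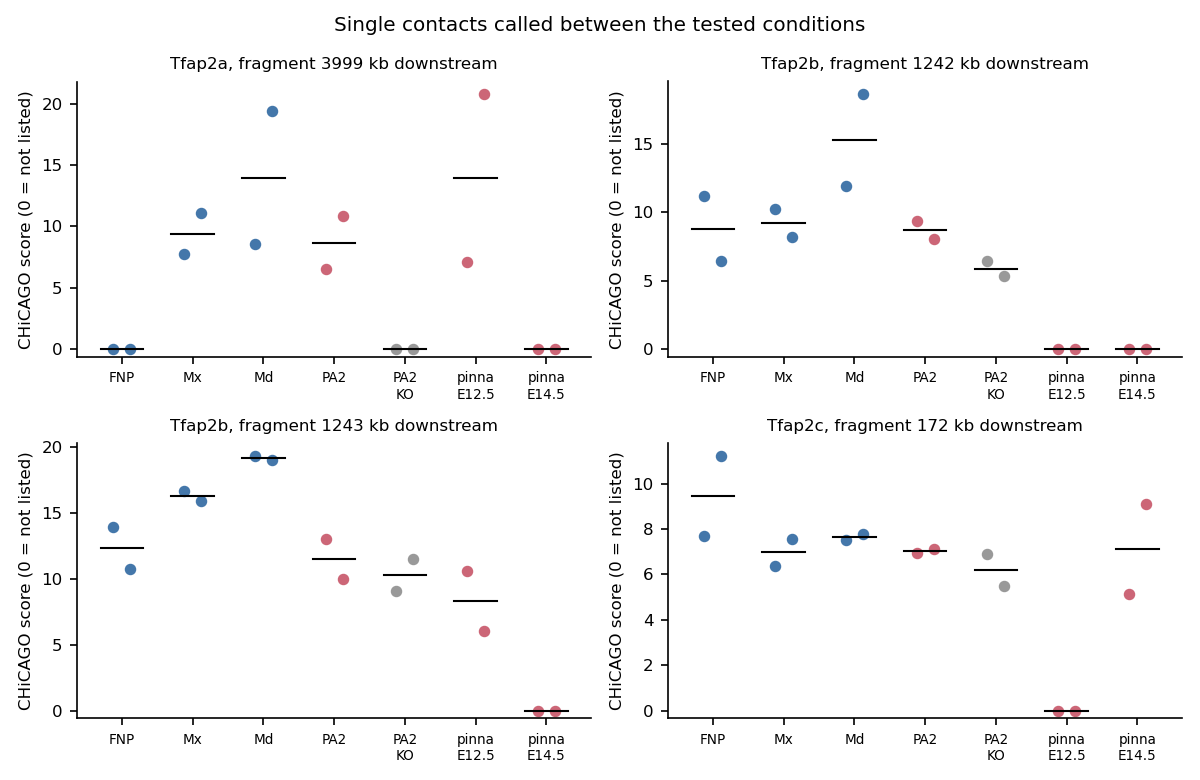
CHiCAGO scores (y axis) of the 4 single contacts that passed a test, in each library, by condition (x axis). Points are libraries, lines are means of 2, and 0 stands for any score below 5. The *Tfap2b* contacts at 1242 and 1243 kb are at 0 in both E14.5 libraries, and the *Tfap2a* contact at 3999 kb is at 0 in FNP, in the knockout and at E14.5.

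The comparison of *Hoxa2* knockout with wild-type PA2 asked whether the contacts differ where *Hoxa2* is missing. *Tfap2a* had 13 and 11 contacts in the knockout and 25 and 26 in wild-type PA2. The knockout libraries also had the fewest listed pairs of all (119370 and 128042, against 144961 and 150056). With the library totals taken into account, the log2 difference was -0.75 ± 0.275 (SE), which did not pass (limma, unadjusted p = 0.0146, adjusted p = 0.247), and it turned to 0.25 when only scores of 10 or more were counted. *Tfap2b* (-0.02), *Tfap2c* (-0.07) and *Tfap2e* (0.18) were closer to 0, with adjusted p = 0.991, 0.934 and 0.868. Thus 0 of 4 baits passed, where 0.853% of all baits did.

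Among single contacts, 1 of 134 family pairs passed, lower in the knockout, where 1.8% of all pairs were called lower and 2.16% in either direction. This was again *Tfap2a* with the *Nrn1* fragment, with 0 and 0 in the knockout against 6.53 and 10.84, a difference of -2.83 ± 0.564 on the asinh scale (adjusted p = 0.0282). Each 0 stands for any score below 5, so the size includes that step, and libraries set to 0 show no spread. The call was lost without any of its 4 libraries, at adjusted p = 0.0778 and 0.185 without PA2 replicate 1 and replicate 2, and 0.115 and 0.0985 without knockout replicate 1 and replicate 2. At an unadjusted p under 0.05 there were 14 family pairs (10.4%, against 16.7% of all pairs), 11 lower and 3 higher. The pairs of *Tfap2b* with *Sox17* (0.0611) and *Tfap2c* with chr2:172986597 onwards (0.0946) came next. None of the 28 bins passed, where 1.02% of all bins did, and 3 (10.7%, against 15.1% of all bins) had an unadjusted p under 0.05.

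Other genes of the AP-2 pathway were described by lists of baits. Of the 7 co-regulators tested, such as the co-activator *Cited2*, the acetyltransferases *Ep300* and *Crebbp* and the inhibitor *Kctd15*, 0 passed in any comparison, where 1.83% (*Hoxa2*-expressing against *Hox*-negative), 0% (position), 3.27% (stage) and 0.853% (knockout) of all baits did, shares at which 0 of 7 is no contrast. Their median log2 difference between *Hoxa2*-expressing and *Hox*-negative libraries was -0.19, against -0.03 over all baits, and the members farthest from 0 were *Cited2* (-0.88, adjusted p = 0.235), *Wwox* (0.72, 0.137) and *Cited4* (-0.33, 0.704). In the knockout the median was 0.23 against 0.01, with *Cited4* at 1.20 (0.379), *Cited2* at 0.99 (0.519) and *Wwox* at -0.72 (0.478). The ranges of condition means were widest for *Cited2* (2.05), *Cited4* (1.04) and *Ep300* (0.76) with position, and for *Cited4* (1.26), *Cited2* (1.26) and *Ep300* (1.08) with stage.

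Of 7 facial genes listed for their dependence on AP-2 factors, 2 had fewer contacts in *Hoxa2*-expressing libraries, both homeobox genes of the frontonasal mesenchyme. Of all baits 1.83% were called in either direction, and 70 of 10199 were called lower. *Alx4* differed by -1.47 ± 0.264 on the log2 scale (limma, adjusted p = 0.0133) and *Alx1* by -1.36 ± 0.325 (adjusted p = 0.0410), and the list had a median of -0.28. The *Alx4* call held without each of the 12 libraries in turn (adjusted p up to 0.0410). That of *Alx1* was lost without either FNP library (0.0890 and 0.104), either Mx library (0.0512 and 0.0730), Md replicate 2 (0.0718), either E12.5 pinna library (0.0970 and 0.0543) or E14.5 pinna replicate 1 (0.0943). In the stage comparison *Pax3*, a paired-box gene of early neural crest, changed (adjusted p = 0.000807, and up to 0.0108 without any 1 library), where 3.27% of all baits did. In the knockout *Emx2*, a homeobox gene of forebrain and arches, fell by 1.60 (adjusted p = 0.0142), a call lost without wild-type PA2 replicate 1 (0.0960) or 2 (0.162) or knockout replicate 1 (0.0702) or 2 (0.117), where 0.853% of all baits were called (84 of 10199 lower). None passed for position, where 0% of all baits did, and *Alx1* and *Alx4* had the widest ranges of condition means (2.73 and 2.01, adjusted p = 0.299 for both). With stage the range of condition means was 1.92 for *Pax3* and 0.91 for *Alx1*, and in the knockout *Msx1* (-0.78) and *Alx1* (0.65) came after *Emx2*.

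Of 13 baits of neural crest transcription factors, 0 passed between *Hoxa2*-expressing and *Hox*-negative libraries. Of all baits 1.83% did, a share at which 0 of 13 is no contrast. There *Msx2* (-1.59, adjusted p = 0.0612), *Ets1* (0.99, 0.0994) and *Myc* (-0.75, 0.0585) were farthest from 0. With stage, 4 changed, where 3.27% of all baits did, the bait of *Pax3* already named, that of the homeobox gene *Msx2* (adjusted p = 0.00455) and both of the zinc-finger gene *Zic1* (0.0117 and 0.0278). Without PA2 replicate 1 the calls of *Msx2* (0.0706) and of both *Zic1* baits (0.0532 and 0.106) were lost. Those of both *Zic1* baits were also lost without E14.5 pinna replicate 1 (0.150 and 0.215), and that of the second without PA2 replicate 2 (0.121). In the knockout 1 bait of *Zic1* fell by 1.94 (adjusted p = 0.0347), where 0.853% of all baits were called (84 of 10199 lower), while the other differed by -0.14 (0.920). That call was lost without wild-type PA2 replicate 1 (0.172) or 2 (0.202) or knockout replicate 1 (0.0635) or 2 (0.258). *Ets1* (0.87) and *Msx1* (-0.78) followed. For position 0 passed, where 0% of all baits did, and *Myc* (0.96), *Ets1* (0.65) and *Msx1* (0.62) had the widest ranges. Of 27 baits of genes within 1 Mb of a *Tfap2* gene, 1 passed with stage, where 3.27% of all baits did, a share at which 1 of 27 is no contrast. None passed elsewhere, where 1.83% (*Hoxa2*-expressing against *Hox*-negative), 0% (position) and 0.853% (knockout) of all baits did. The bait that passed was *Clspn*, which lies in the *Tfap2e* patch (adjusted p = 0.00265, but 0.0634 without PA2 replicate 2). Its neighbourhood list had a median of -0.03 between *Hoxa2*-expressing and *Hox*-negative libraries, as did all baits, with *Cbln4* (1.23, adjusted p = 0.0854), *Pck1* (0.91, 0.102) and *Thrap3* (0.90, 0.286) farthest from 0. In the knockout these were *Csf3r* (1.12), *Clspn* (-0.97) and *Spo11* (-0.86). The widest ranges were those of *Cbln4* (1.98), *Adprhl2* (1.55) and *Map7d1* (1.51) with position, and of *Clspn* (2.01), *Sh3d21* (1.86) and *Spo11* (1.20) with stage.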

How the data were processed

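PCHi-C was measured in 14 libraries. The authors aligned reads to GRCm38/mm10 (HiCUP), scored bait contacts (CHiCAGO) and deposited, per library, the pairs with a score of at least 5. Base calls were made with bcl2fastq 2.17, per the submitters' processing notes. Md replicate 1 and E12.5 pinna replicate 2 were merged, by their deposited names. Tables of super-enhancers were not used.

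Baits were assigned by TSSs of GENCODE vM21 annotation, and motif windows and fragment ends were read from GRCm38. Unlisted pairs were given 0. The asinh of the score was fitted with limma (trended eBayes) for pairs listed in at least 2 of 12 libraries for *Hoxa2*-expressing against *Hox*-negative (a 2-group fit) and in at least 4 of 14 otherwise (7 condition means, with moderated F tests for position and stage). Baits were fitted on log2 of the scaled contact number plus 1, with a mean of at least 5. P-values were adjusted by Benjamini-Hochberg over all pairs or baits, at 0.05. In the F tests a size is the range of condition means.

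The members and lists were chosen with earlier results of these data known. Named were all called members, the strongest contacts of each bait, contacts with other baits in both libraries of a condition, and from each list the called baits and the 3 with the largest difference, apart from 2 baits whose values are not reported here. Patches and contacts near the threshold were chosen after seeing their values. The steps were tested on simulated data with independent noise in each library, so the shares recovered need not hold for these data. A smaller and a larger change were planted, 1.5 and 3 on the asinh scale for pairs and 2-fold and 4-fold for baits. For pairs, 24% and 100% of these were recovered for *Hoxa2*-expressing against *Hox*-negative, and 4% and 17% for position. Stage gave 1% and 11%, and the knockout 0% and 4%. For baits the shares were 55% and 100%, 6% and 62%, 6% and 65%, and 5% and 56% in the same order. Alternatives were other filters, scales, thresholds and designs, 100 kb bins (added after seeing the data) and each library left out. R 4.3.3, limma 3.58.1, Python 3.11.15, pandas 2.3.3, NumPy 2.4.6, samtools 1.23.1 and matplotlib 3.10.9 were used.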

Additional observations from a re-analysis of the deposited data

Results flagged for a closer look

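In 46 groups of 6 libraries, the gap between the highest or lowest library and the nearest other was divided by the range of the group. This ratio was set against Dixon's limit of 0.625 and passed it in 4 groups. Chance alone flags about 1 in 20 groups. FNP replicate 2 scored 11.23 for *Tfap2c* with chr2:172720074-172721918, against 6.37 to 7.77 in the other *Hox*-negative libraries. FNP replicate 2 also had a mean score of 9.06 over the *Tfap2b* patch chr1:19970844-19979873, against 1.83 to 3.91. Md replicate 2 had a mean score of 8.12 over the *Tfap2d* patch chr1:20454455-20473010, against 0 to 2.18. PA2 replicate 1 had 1.03 over that *Tfap2d* patch, against 0 in the other *Hoxa2*-expressing libraries, where any listed score would pass the limit. The patches were drawn from these same scores.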

How the results depend on the processing

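With 2 libraries per condition, unlisted scores between 0 and 5 unknown and no read counts at hand, the family counts moved with the processing. The cause was not tested. The numbers of family pairs past the threshold are given in the order of *Hoxa2*-expressing against *Hox*-negative, position, stage and knockout. They were 0, 0, 4 and 1 as reported and 0, 0, 4 and 1 with a replicate block (0 baits in all 4 comparisons), so the block changed no call of the family, although it took the position calls over all pairs from 1560 to 18. Deviations of same-numbered libraries correlated by 0.00207 to 0.0746 over 21 pairs of conditions, and whether some of the libraries shared a batch was not tested. With scores under 10 set to 0 the numbers were 1, 3, 1 and 0, with equal numbers of top-scoring pairs 3, 2, 4 and 1, with scores capped at 20 1, 0, 4 and 2, with within-chromosome pairs only 4, 0, 4 and 1, and in 100 kb bins, scaled or not, 2, 0, 1 and 0. Pairs listed in at least 2 libraries gave 9, 10 and 4 for position, stage and knockout, and pairs in at least 6 gave 0 for the knockout. The 7 condition means gave 23 for *Hoxa2*-expressing against *Hox*-negative (4 higher, 19 lower). Libraries of the tested conditions alone gave 14 for stage and 13 for the knockout. Without Md replicate 1 and E12.5 pinna replicate 2 together, stage gave 12 and the knockout 4. Leaving out each library in turn gave 0 pairs for *Hoxa2*-expressing against *Hox*-negative, 0 to 2 for position, 3 to 8 for stage and 0 to 3 for the knockout. For baits, it gave 0 to 1 for stage (*Tfap2b* without E12.5 pinna replicate 1, adjusted p = 0.0478), and 0 throughout the other settings and comparisons. Between *Hoxa2*-expressing and *Hox*-negative libraries the contact number differences, none past the threshold, ranged over all alternatives from 0.03 (knockout added to the *Hoxa2*-expressing group) to 0.45 for *Tfap2a*, from -0.77 to -0.20 for *Tfap2b* and from -0.73 to -0.25 for *Tfap2c*. Among single values, the *Tfap2a* contact number in the knockout reversed with only scores of 10 or more, to 0.25. Setting scores under 10 to 0 ended 4 of the 5 calls of single pairs (adjusted p = 0.632 to 1) and left the *Tfap2c* pair listed in too few libraries for a test, and equal numbers of pairs ended that of *Tfap2c* (0.294) and the knockout call of *Tfap2a* with *Nrn1* (0.0652). Pairs in at least 6 libraries and the square root of the score ended both *Nrn1* calls (stage 0.0677 and 0.0706, knockout 0.0501 and 0.0971). Of the 9 bait calls among the listed genes, counting no score under 10 ended those of *Alx4* (adjusted p = 0.320), *Alx1* (0.457), *Msx2* (0.573), 1 *Zic1* bait with stage (0.168) and *Zic1* in the knockout (0.394), and that of *Pax3* passed under every alternative run. *Alx1* was also lost unscaled (0.0592) and with equal numbers of pairs (0.0622), the other *Zic1* bait with stage unscaled (0.0675), and *Emx2* (0.0670) and *Zic1* (0.0749) in the knockout with a pseudocount of 5. Libraries of the tested conditions alone ended the stage calls of *Msx2* (0.0902), both *Zic1* baits (0.107 and 0.120) and *Clspn* (0.0518). Over all pairs, calls ranged from 14 to 16187 for *Hoxa2*-expressing against *Hox*-negative (67 as reported), 0 to 7634 for position (1560), 746 to 16381 for stage (3111) and 870 to 28348 for the knockout (3500). For 100 kb bins, unscaled and scaled, they were 631 and 806, 28 and 31, 712 and 795, and 707 and 490. Over all baits they ranged from 22 to 796 (187), 0 to 2 (0), 69 to 752 (334) and 24 to 221 (87).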

Other observations

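The regions that *Tfap2* baits contacted were also listed with other baits. *Fam209*, whose bait lies near *Tfap2c*, was listed with 17 fragments of the main *Tfap2c* patch in up to 14 libraries, and *Gcnt7* and *Rtf2*, which share a bait, with 9 fragments in up to 12. A bait between *Tfap2d* and *Tfap2b*, which holds the start of the antisense gene *Gm15825*, was listed with 11 fragments of the main *Tfap2b* patch in up to 8 libraries. In the *Tfap2e* patch, the bait of *AU040320* reached 18 fragments and that of *Sfpq*, a splicing factor gene, 10, in up to 14 and 13 libraries. At 2 of the *Tfap2a* patches the nearby gene *Gm9979* was listed with 2 and 7 fragments, in up to 5 and 7 libraries. The contacts of such neighbours come from the same libraries and were not tested against each other.

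Among the baits whose scaled contact numbers were most like those of a family member over the 14 libraries (Pearson r, across libraries that share one scaling, given as a description) were *Mbtd1* and *Utp18* for *Tfap2a* (0.899), *Mnat1* for *Tfap2b* (0.897), and *Fam118b* and *Rpusd4* for *Tfap2e* (0.927), each pair of names sharing a bait. Others high in likeness were the baits of *Det1* (0.896) and of *1700017N19Rik* (0.885) for *Tfap2a*, *Itga2b* (0.870) and *Atp2c2* (0.857) for *Tfap2b*, *Mphosph8* (0.892) and *Vcpkmt* (0.881) for *Tfap2c*, and *Slc17a2* (0.886) and *Slit3* (0.866) for *Tfap2e*. *Tfap2d* had too few contacts to be included.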
